A study of Mus musculus with 6 samples.

Results

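The amino acid transporter genes of the SLC1, SLC3, SLC6, SLC7, SLC36, SLC38 and SLC43 families were compared between sulfasalazine-treated and untreated mouse cells. Members were the rows of the deposited gene table whose symbol begins with Slc, one of the family numbers 1, 3, 6, 7, 36, 38 or 43, and a, leaving out Slc7a11 and Slc6a8. Of 14003 genes in the table, 40 met this rule. Of these, 39 are transporter family genes, and 20 further genes of these families were not analysed here. The other, Slc7a6os, matched by its name, which it takes from its neighbour Slc7a6 on the other strand, and is not a transporter gene.

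RNA was sequenced from 3 samples given 200 µM sulfasalazine (SAS) for 24 h and from 3 untreated control samples (CTL) of wild-type MC3T3-E1 cells, labelled as a preosteoblast line and grown in α-MEM with serum. The labels name no vehicle for the controls, give all samples the same batch label, and leave it unsaid whether each replicate was its own culture. The p-values therefore speak only of the spread among the 6 libraries, part or all of which may be technical. Levels are given in FPKM, fragments scaled to gene length and to the mapped fragments of the library, which allows genes of different length to be compared. Changes are log2 fold changes of sulfasalazine over control on the log2(FPKM + 1) scale with their standard error (SE), and a gene is called higher or lower where the Benjamini-Hochberg adjusted p from limma, taken over all genes tested, was under 0.05.

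Sulfasalazine is an anti-inflammatory drug that also inhibits the cystine-glutamate exchanger, an assembly of the light chain encoded by Slc7a11 and the heavy chain CD98 encoded by Slc3a2. CD98 brings several other SLC7 light chains to the plasma membrane, among them the large neutral amino acid exchanger LAT1 (Slc7a5) and the exchangers of cationic and neutral amino acids y+LAT1 and y+LAT2 (Slc7a7 and Slc7a6). Other families carry amino acids alone: SLC1 holds exchangers of small neutral amino acids and glutamate transporters, SLC38 sodium-coupled glutamine carriers, SLC36 proton-coupled carriers, SLC43 facilitative carriers of large neutral amino acids, and SLC6 sodium- and chloride-dependent carriers of glycine, taurine, GABA and monoamines. Several of these genes are known targets of ATF4, the transcription factor of the amino acid response.

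Of the members that moved, Slc7a1 was among those that fell most and Slc43a2 among those that rose most. Slc38a10 had the highest level of those that rose. The upstream sequences of these 3 are shown, taken from windows with no annotated untranslated or coding bases. They are the 250 bases before a listed gene start (for Slc7a1, the outer one of 2 listed), 5′ to 3′ on the gene's strand, from RefSeq on GRCm38.p6, at chr5:148399905-148400154 (minus strand) for Slc7a1, chr11:75531444-75531693 (plus strand) for Slc43a2 and chr11:120151352-120151601 (minus strand) for Slc38a10. Capitals mark a match to the antioxidant response element. The inner window of Slc7a1, which is not shown, held no match to it.
Slc7a1: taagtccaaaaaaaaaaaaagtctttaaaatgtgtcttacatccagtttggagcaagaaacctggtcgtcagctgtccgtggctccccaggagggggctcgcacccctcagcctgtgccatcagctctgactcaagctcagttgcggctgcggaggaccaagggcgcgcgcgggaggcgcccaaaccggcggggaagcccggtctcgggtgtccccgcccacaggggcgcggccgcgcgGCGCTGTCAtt
Slc43a2: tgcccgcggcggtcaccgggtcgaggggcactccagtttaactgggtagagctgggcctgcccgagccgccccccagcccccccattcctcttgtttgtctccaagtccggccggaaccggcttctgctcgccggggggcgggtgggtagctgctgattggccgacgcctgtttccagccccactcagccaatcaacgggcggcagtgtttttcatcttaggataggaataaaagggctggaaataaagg
Slc38a10: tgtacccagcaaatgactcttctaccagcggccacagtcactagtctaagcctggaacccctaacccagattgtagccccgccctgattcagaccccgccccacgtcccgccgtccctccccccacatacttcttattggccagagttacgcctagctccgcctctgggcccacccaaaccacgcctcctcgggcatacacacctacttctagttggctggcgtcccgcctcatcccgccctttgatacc
The ATF4-C/EBP composite element, searched as TGATGNAA on both strands, occurred in none of these 3 windows, and the antioxidant response element, searched as TGACNNNGC on both strands, occurred only in that of Slc7a1, starting 11 bases before the gene start on the opposite strand. Overlaps between matches of the motifs were not removed. Upstream windows were in hand for 28 of the 40 members. The first motif was found in 1 of the 28, Slc7a7, which is 3.57% of them, against 3.91% of all 27025 genes with a window. The second was found in 6 of the 28, or 21.4%, against 11.5% of all genes. Of these 6, only Slc7a1 was called. Slc38a2, Slc6a9 and Slc7a6 did not pass, and Slc43a1 and Slc6a13 were not tested. A gene with more windows has more places for a match, and the 28 members had 46 windows, against 32851 for all 27025 genes. By window, the second motif was in 7 of the 46, against 10.2% of all windows. A match is a description of letters, and a factor may bind outside these windows.

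Recovered reads on genes numbered 19247898 to 21579133 in SAS libraries and 15980940 to 20828706 in CTL libraries, with the fewest in CTL replicate 3. Mitochondrially encoded genes took 3.72% to 3.80% of reads in SAS libraries and 1.47% to 2.21% in CTL libraries. Of 8 osteoblast markers, 5 were in the table, with a summed level of 869 to 1078 FPKM in SAS and 1539 to 2098 FPKM in CTL. The 2 that were tested, Spp1 and Runx2, were lower, and the defining markers Col1a1, Bglap and Sp7 stayed under 1 FPKM in all 6 libraries. Of 4 tested epithelial markers, 2 were higher, Krt8 at 902 ± 58.1 FPKM in SAS and 287 ± 33.4 FPKM in CTL and Krt18, while Krt19 was lower and Cdh1 did not pass. The summed epithelial level was 1884 to 2093 FPKM in SAS and 1293 to 1452 FPKM in CTL. Summed levels of macrophage and osteoclast markers were 17.8 to 28.7 FPKM in SAS and 32.0 to 56.3 FPKM in CTL, almost all of it Cd68, which was lower, while Csf1r stayed under 0.1 FPKM. Acp5 went the other way, at 0.886 to 1.49 FPKM in SAS and 0.0408 to 0.399 FPKM in CTL, but was not tested. Ctsk stayed under 0.2 FPKM. Fibroblast and pericyte markers summed to 2.18 to 6.31 FPKM in SAS and 4.59 to 11.4 FPKM in CTL, mainly from Pdgfrb, which did not pass. The endothelial markers Pecam1 and Cdh5 stayed under 0.2 FPKM. The part of these differences in the results below was not tested, and in bulk RNA fewer cells of a type cannot be told apart from less RNA per cell.

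All 5 members with a control mean of at least 100 FPKM, Slc3a2, Slc6a6, Slc7a5, Slc7a1 and Slc1a5, were lower with sulfasalazine. Picking members by their control level favours falls, and the share over all genes at that level was not counted. Slc38a10, at 166 FPKM in SAS and 86.8 FPKM in CTL, was higher. With Slc43a2 and Slc7a4 it led the members that were higher. Of the 40 members, 19 reached 1 FPKM or more in 3 or more libraries and entered the test. Of those, 7 were lower, 5 were higher and 7 did not pass. Among all 10338 genes tested, 29.3% were lower, 37.2% higher and 66.5% changed in either direction, against 63.2% of the tested members, so the share of members called was close to that of all genes. Over all genes the balance of directions depended on the scaling, with 3507 higher and 3472 lower after median-of-ratios scaling and 3507 higher and 3549 lower after quantile normalization. The median log2 fold change was 0.00 over the tested members and 0.08 over all genes tested. The values of the groups did not overlap for 16 of the 19 tested members, or 84.2%, against 71.4% of all genes tested. Slc7a4 passed the filter on low values only through the SAS libraries, in which it was high, so it had to differ, and these counts are a description of the members that passed and not of all members. Leaving it aside, 4 tested members were higher.

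**Figure D1:**
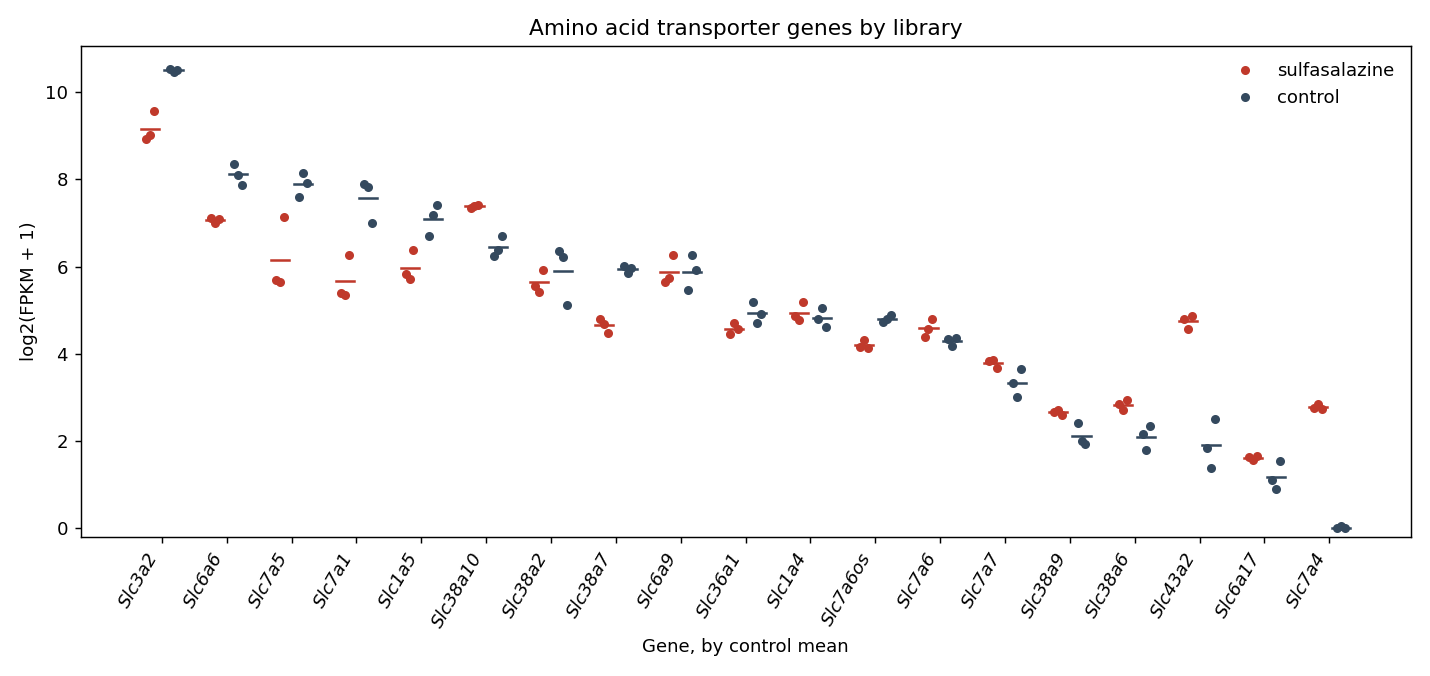
Levels of the 19 tested members as log2(FPKM + 1) in each library, SAS points left of CTL points, ordered by control mean, with a bar at the group mean. Slc3a2 is the most abundant member in both groups, and its SAS points, at 482 to 755 FPKM, lie below its CTL points, at 1407 to 1482 FPKM.

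Slc3a2, encoding the CD98 heavy chain (chromosome 19, 8706882 to 8723369 on GRCm38), had 482, 515 and 755 FPKM in SAS replicates 1, 2 and 3, against 1482, 1407 and 1459 FPKM in CTL replicates 1, 2 and 3. The groups did not overlap, and SAS replicate 3 lay nearest to the controls. The mean was 584 ± 149 FPKM in SAS and 1449 ± 38.6 FPKM in CTL (SD, n = 3 each), and by limma the log2 fold change was -1.34 with an SE of 0.18 and an adjusted p of 0.00032. The other heavy chain gene, Slc3a1, which partners the cystine carrier of kidney and gut, stayed at 0.219 to 0.582 FPKM in SAS and 0.0538 to 0.413 FPKM in CTL and was not tested; 26.5% of its exonic bases lie opposite Prepl, which averaged 23.2 ± 0.242 FPKM in SAS and 8.06 ± 0.198 FPKM in CTL.

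Of the light chains among the members, which leave out Slc7a11, only Slc7a5 passed the test. Slc7a5, encoding LAT1, which imports leucine and other large neutral amino acids (chromosome 8, 121881150 to 121907694), had 50.8, 48.8 and 140 FPKM in SAS replicates 1, 2 and 3, against 193, 283 and 241 FPKM in CTL replicates 1, 2 and 3. The groups did not overlap, although SAS replicate 3 stood well above the other SAS libraries. Its log2 fold change was -1.73 (SE 0.37, limma adjusted p = 0.0038), and -2.22 without SAS replicate 3.

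Slc7a6, encoding y+LAT2, had 19.7, 22.7 and 26.8 FPKM in SAS and 19.3, 17.2 and 19.5 FPKM in CTL (log2 fold change 0.29, limma adjusted p = 0.12). Slc7a7, encoding y+LAT1, had 13.3, 13.4 and 11.7 FPKM in SAS and 9.12, 7.06 and 11.6 FPKM in CTL (log2 fold change 0.45, limma adjusted p = 0.065). For each, the SAS values lay above the CTL values by a narrow margin, and neither passed. Slc7a7 shares 7.0% of its exonic bases with other genes, mainly Oxa1l on the opposite strand. Slc7a7 passed without CTL replicate 3 (log2 fold change 0.61, limma adjusted p = 0.0065). Slc7a8, encoding LAT2, had a highest value of 0.0471 FPKM in SAS and was listed at 0 in all CTL libraries.

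Summed over Slc7a5, Slc7a6, Slc7a7 and Slc7a8, light chain levels were 83.9, 84.99 and 178 FPKM in SAS replicates 1, 2 and 3, against 221, 308 and 272 FPKM in CTL replicates 1, 2 and 3. As a percentage of the Slc3a2 level, this sum was 19.2% ± 3.87 in SAS and 18.5% ± 3.48 in CTL (SD, n = 3 each; exact permutation test, two-sided, p = 0.8). The ranges overlapped, and no change in this ratio was detected. With 3 libraries a group the exact permutation test cannot go below p = 0.1, so it cannot show that the ratio held. Slc7a5 made up 65.5% ± 11.3 of the light chain sum in SAS and 89.3% ± 2.57 in CTL, with no overlap between the groups (exact permutation test, two-sided, n = 3 each, p = 0.1, the smallest this design allows). Slc7a11, the light chain left out by the rule, had 8.65, 8.52 and 16.9 FPKM in SAS and 1.27, 3.97 and 0.476 FPKM in CTL.

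Of the cationic amino acid transporter genes, only Slc7a1 and Slc7a4 were tested, and Slc7a4 entered the test only through its SAS values. Slc7a1, encoding the arginine and lysine carrier CAT1 (chromosome 5, 148327410 to 148399904), had 40.8, 39.4 and 76.2 FPKM in SAS replicates 1, 2 and 3, against 235, 226 and 127 FPKM in CTL replicates 1, 2 and 3. The groups did not overlap, and replicate 3 of each group lay nearest to the other group. Its log2 fold change of -1.91 (SE 0.31, limma adjusted p = 0.0008) was close to that of Slc7a5, and it was -2.50 without replicate 3 of both groups. The order of these 2 genes is not resolved: without CTL replicate 1 the log2 fold change was -1.75 for Slc7a1 and -1.88 for Slc7a5. Its first upstream window is the one shown with a capital motif.

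Slc7a4, a gene of the same subfamily whose protein has no well established substrate (chromosome 16, 17572018 to 17583214), had 5.76, 6.14 and 5.63 FPKM in SAS replicates 1, 2 and 3. In CTL it had 0.031 FPKM in replicate 2 and was listed at 0 in replicates 1 and 3. In recovered reads this was 193, 190 and 168 reads in SAS libraries against 0, 1 and 0 in CTL libraries. Because it entered the test only through its SAS values, its call is not taken as support and its fold change is a description. The log2 fold change was 2.76, and it depends on the pseudocount, being 5.76 with a pseudocount of 0.1. Another gene on the opposite strand, P2rx6, covers most of the 13.3% of its exonic bases that are shared, and stayed at 0.107 to 0.191 FPKM in SAS and 0 to 0.0517 FPKM in CTL. The remaining genes of this subfamily, Slc7a2 and Slc7a3, stayed under 0.2 FPKM in all libraries.

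Of the SLC1 neutral exchangers, Slc1a5 fell and Slc1a4 did not pass. Slc1a5, encoding the glutamine exchanger ASCT2 (chromosome 7, 16781340 to 16798274), had 55.8, 51.5 and 81.8 FPKM in SAS replicates 1, 2 and 3, against 104, 143 and 169 FPKM in CTL replicates 1, 2 and 3. The groups did not overlap (log2 fold change -1.13, SE 0.22, limma adjusted p = 0.0024). Slc1a4, encoding the serine and alanine exchanger ASCT1, had 28.1, 26.5 and 35.5 FPKM in SAS and 26.7, 32.1 and 23.4 FPKM in CTL, with overlapping groups (log2 fold change 0.13, SE 0.16, limma adjusted p = 0.51).

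**Figure D2:**
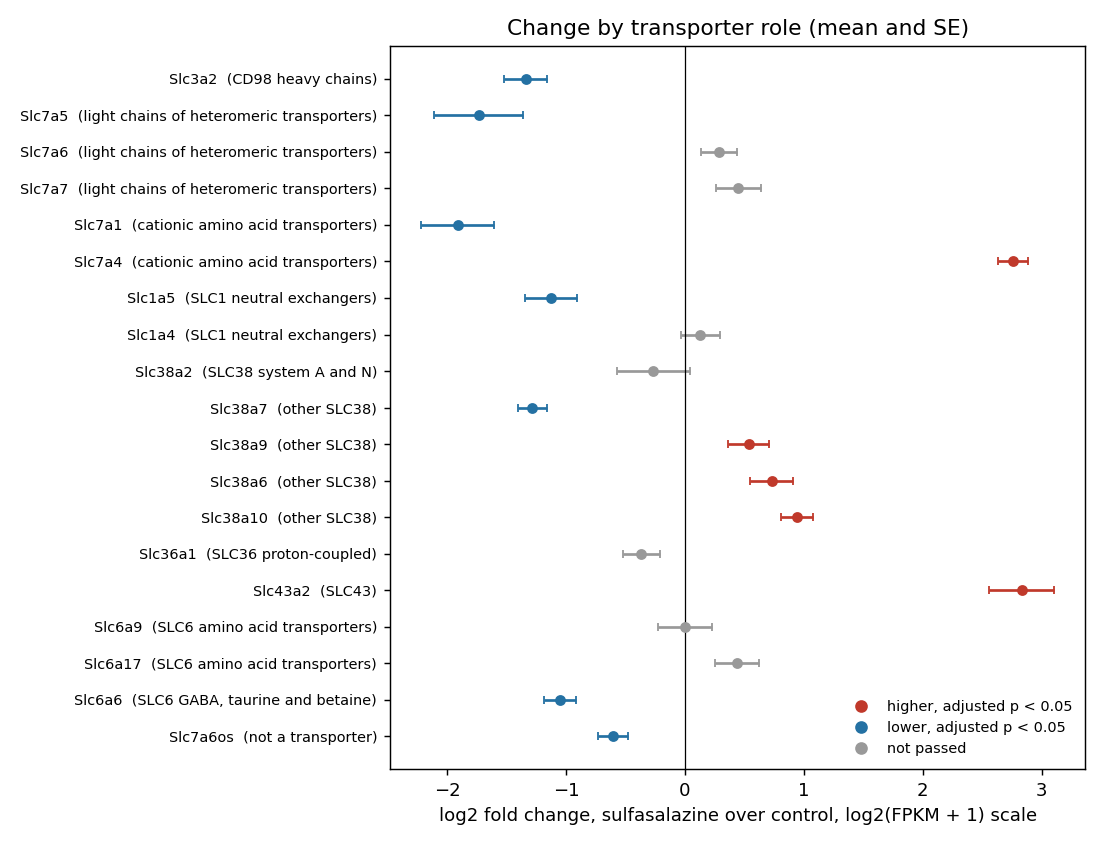
Log2 fold change of sulfasalazine over control for the 19 tested members, grouped by role down the page, with bars of 1 SE. Slc3a2, Slc7a5, Slc7a1, Slc1a5, Slc38a7, Slc6a6 and Slc7a6os lie left of 0 and passed, Slc7a4, Slc38a9, Slc38a6, Slc38a10 and Slc43a2 lie right of 0 and passed (Slc7a4 entered the test only through its SAS values), and grey points did not pass.

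The SLC38 genes split by member. Slc38a2, encoding the system A carrier SNAT2, had 46.3, 41.7 and 59.7 FPKM in SAS replicates 1, 2 and 3, against 81.3, 73.3 and 33.9 FPKM in CTL replicates 1, 2 and 3. CTL replicate 3 lay below every SAS library, the groups overlapped, and the gene did not pass (log2 fold change -0.27, SE 0.31, limma adjusted p = 0.47). Without CTL replicate 3 it was lower (log2 fold change -0.65, limma adjusted p = 0.0052), as it was without replicate 3 of both groups (-0.80, limma adjusted p = 0.00024). Leaving out CTL replicate 1 gave a log2 fold change of -0.03 (limma adjusted p = 0.93). Slc38a1, encoding SNAT1, stood at 0.238, 0.246 and 0.400 FPKM in SAS and 0.179, 0.0449 and 0.117 FPKM in CTL and was below the filter.

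Slc38a7, encoding a lysosomal glutamine and asparagine exporter (chromosome 8, 95835920 to 95853539), had 27.0, 24.6 and 21.3 FPKM in SAS, against 63.3, 56.7 and 61.1 FPKM in CTL. The groups were far apart relative to their spread (log2 fold change -1.28, SE 0.12, limma adjusted p = 5.8e-05), and SAS replicate 3 was here the lowest library. Slc38a10, whose protein is little characterised (chromosome 11, 120103960 to 120151346), had 162, 166 and 170 FPKM in SAS, against 74.5, 82.0 and 104 FPKM in CTL (log2 fold change 0.94, SE 0.13, limma adjusted p = 0.00041). Its SAS values were tightly spaced and lay above every CTL value, and 5.72% of its exonic bases are shared, mainly with Gm11769 on the opposite strand.

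Slc38a9, encoding the lysosomal arginine sensor that acts on mTORC1, had 5.35, 5.52 and 5.03 FPKM in SAS and 4.34, 3.01 and 2.81 FPKM in CTL (log2 fold change 0.54, SE 0.17, limma adjusted p = 0.023). It no longer passed with quantile normalization (log2 fold change 0.26, limma adjusted p = 0.22) and when any one of SAS replicate 1, SAS replicate 2 or CTL replicate 2 was left out (limma adjusted p = 0.077 to 0.085). Slc38a6 had 6.19, 5.58 and 6.64 FPKM in SAS and 3.48, 2.48 and 4.07 FPKM in CTL (log2 fold change 0.73, SE 0.18, limma adjusted p = 0.0074). Of its 50-base words 35.5% occur in transcripts of other genes, mainly those of Noct, so its reads cannot be assigned with certainty. Noct averaged 2.49 ± 0.874 FPKM in SAS and 11.4 ± 2.82 FPKM in CTL.

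Slc43a2, encoding LAT4, a facilitative carrier of branched-chain amino acids and phenylalanine (chromosome 11, 75531694 to 75577575), was higher with sulfasalazine. It had 26.7, 22.7 and 28.3 FPKM in SAS replicates 1, 2 and 3, against 2.59, 1.62 and 4.66 FPKM in CTL replicates 1, 2 and 3. The mean was 25.9 ± 2.92 FPKM in SAS and 2.96 ± 1.55 FPKM in CTL (SD, n = 3 each), 8.76-fold higher in SAS, and the log2 fold change was 2.83 (SE 0.27, limma adjusted p = 5.6e-05). With a pseudocount of 0.1 the log2 fold change was 3.21, below the 5.76 of Slc7a4. Slc43a2 shares 9.18% of its exonic bases, mainly with Gm45606 on the opposite strand. Slc7a5 and Slc43a2, whose products both carry leucine, thus stood at 79.8 ± 51.9 and 25.9 ± 2.92 FPKM in SAS and at 239 ± 45.5 and 2.96 ± 1.55 FPKM in CTL (SD, n = 3 each).

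Of the proton-coupled SLC36 genes only Slc36a1, encoding the lysosomal and plasma membrane carrier PAT1 for small neutral amino acids, was tested. It had 20.9, 24.9 and 22.6 FPKM in SAS and 35.6, 25.0 and 29.3 FPKM in CTL, and did not pass (log2 fold change -0.37, SE 0.16, limma adjusted p = 0.066). It was lower in 3 alternatives, median-of-ratios scaling (-0.47, limma adjusted p = 0.027), quantile normalization (-0.45, limma adjusted p = 0.027) and without CTL replicate 2 (-0.49, limma adjusted p = 0.032).

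In the SLC6 family, Slc6a6, encoding the taurine transporter (chromosome 6, 91684053 to 91759066), had 137, 126 and 136 FPKM in SAS, against 327, 274 and 235 FPKM in CTL. The groups did not overlap, and the SAS libraries lay close together (log2 fold change -1.05, SE 0.13, limma adjusted p = 0.00024). Slc6a9, encoding the glycine transporter GlyT1, had 49.4, 52.4 and 75.8 FPKM in SAS and 43.4, 75.6 and 59.7 FPKM in CTL. Its groups overlapped (log2 fold change 0.00, SE 0.23, limma adjusted p = 0.999). Other genes share 30.2% of its exonic bases, with the largest overlap from Ccdc24 on the opposite strand. Ccdc24 averaged 0.704 ± 0.228 FPKM in SAS and 0.672 ± 0.311 FPKM in CTL. Slc6a17, encoding a carrier of synaptic vesicles, had 1.96 to 2.17 FPKM in SAS and 0.874 to 1.91 FPKM in CTL (log2 fold change 0.44, limma adjusted p = 0.064). It passed without CTL replicate 3 (0.62, limma adjusted p = 0.0057) and with limma voom on recovered reads (0.76, limma adjusted p = 0.048). With quantile normalization its log2 fold change was 0.07 (limma adjusted p = 0.73). Slc7a6os, the gene that is no transporter, had 16.7, 18.9 and 16.5 FPKM in SAS and 25.6, 26.8 and 28.6 FPKM in CTL (log2 fold change -0.61, SE 0.12, limma adjusted p = 0.0028).

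Each of the 21 members below the filter had a mean under 1 FPKM over the 6 libraries, and the highest value of any was 1.23 FPKM, that of Slc1a7 in CTL replicate 3. For 11 of them the 6 libraries held 5 or fewer recovered reads in all. Slc1a7, encoding a glutamate transporter known from the retina, was listed at 0 in all SAS libraries, against 0.930, 1.09 and 1.23 FPKM in CTL, or 49, 61 and 53 recovered reads. Slc43a3, encoding a purine nucleobase carrier, was listed at 0 in all SAS libraries, against 0.250, 0.235 and 0.255 FPKM in CTL, or 6, 6 and 5 recovered reads. Slc36a4 had 0.0593, 0.0482 and 0.0832 FPKM in SAS and was listed at 0 in all CTL libraries. With no filter on low values, Slc1a7 and Slc43a3 were lower and Slc36a4 and Slc38a1 higher, where 22.4% of all 14003 genes were lower and 30.5% higher. Among the untested SLC6 genes, Slc6a12, encoding the betaine transporter, was the highest, at 0.0428 to 0.620 FPKM in SAS and 0.131 to 0.853 FPKM in CTL. The acidic amino acid transporter genes Slc1a1 and Slc1a2 reached at most 0.0409 FPKM and 0.0263 FPKM in SAS, and Slc1a2 at most 0.382 FPKM in CTL, where Slc1a1 was listed at 0.

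The order of the levels changed between the groups at its upper end. In SAS libraries Slc3a2 was followed by Slc38a10 at 166 ± 3.81 FPKM, Slc6a6 at 133 ± 6.10 FPKM, Slc7a5 at 79.8 ± 51.9 FPKM and Slc1a5 at 63.0 ± 16.4 FPKM. In CTL libraries it was followed by Slc6a6 at 279 ± 46.2 FPKM, Slc7a5 at 239 ± 45.5 FPKM, Slc7a1 at 196 ± 59.9 FPKM and Slc1a5 at 139 ± 33.0 FPKM (SD, n = 3 each). By group mean, Slc38a10 ranked 2 in SAS and 6 in CTL, and Slc7a1 ranked 7 in SAS and 4 in CTL. In SAS the values of Slc38a10 and Slc6a6 did not overlap, whereas those of Slc7a5 overlapped with those of Slc6a6. Those of Slc7a5, Slc1a5, Slc6a9, Slc7a1 and Slc38a2 also overlapped in SAS. In CTL the values of Slc6a6, Slc7a5 and Slc7a1 overlapped. Those of Slc1a5 overlapped there with Slc7a1 and, narrowly, with Slc38a10, and those of Slc38a10 with Slc38a2. The order of genes with overlapping values is not resolved, which covers the rank of Slc7a1 in both groups and that of Slc38a10 in CTL.

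Summed over the 40 members, the level was 1197, 1214 and 1679 FPKM in SAS replicates 1, 2 and 3, against 2733, 2740 and 2619 FPKM in CTL replicates 1, 2 and 3. The groups did not overlap, and the SAS mean was 0.505 of the CTL mean (exact permutation test, two-sided, n = 3 each, p = 0.1, the smallest this design allows). Slc3a2 alone gave 42.5% ± 2.36 of the sum in SAS and 53.8% ± 2.23 in CTL. Without it the sum was 779 ± 125 FPKM in SAS and 1248 ± 87.0 FPKM in CTL (SD, n = 3 each).

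**Figure D3:**
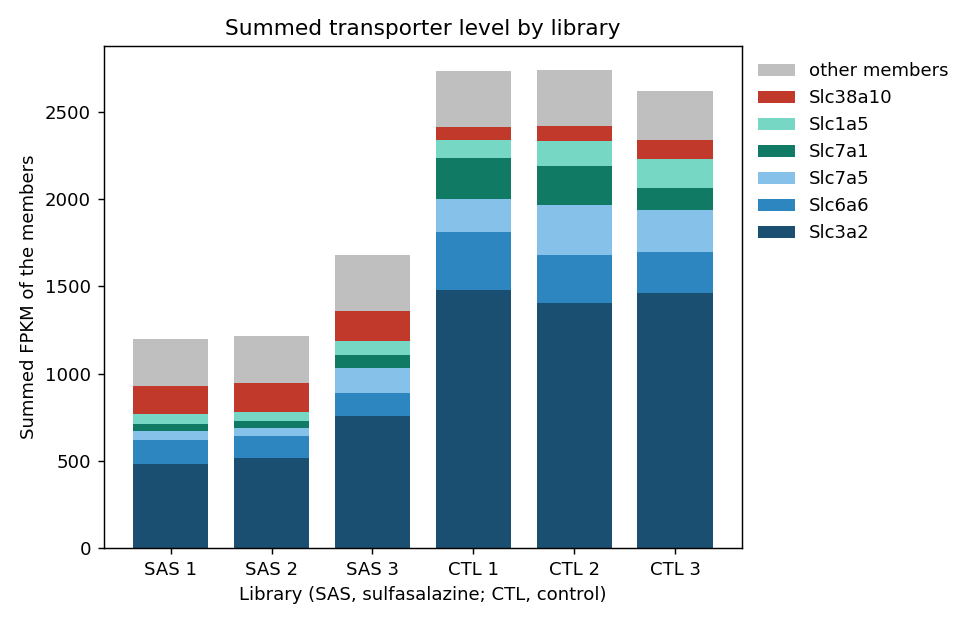
Summed FPKM of the 40 members in each library, SAS libraries left and CTL libraries right, with bars stacked by gene. SAS bars reach 1197 to 1679 FPKM and CTL bars 2619 to 2740 FPKM, and the Slc38a10 segment is taller in SAS than in CTL.

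SAS replicate 3 was the highest treated library for part of the members called lower, at a share close to that of all genes called lower. Of the 7 members called lower, it was the highest SAS library for 4, Slc3a2, Slc7a5, Slc7a1 and Slc1a5, and not for Slc38a7, Slc6a6 and Slc7a6os. Over all genes called lower it was the highest SAS library for 61.4%, against 57.1% of these members. Atf4, which was not among the genes set to be named, was also highest in that library. It had 325, 307 and 543 FPKM in SAS replicates 1, 2 and 3, against 1432, 1462 and 1288 FPKM in CTL replicates 1, 2 and 3. Its part in the transporter levels was not tested.

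The authors' deposited table marks as selected genes whose log2 fold change exceeds 1 in size and whose adjusted p is under 0.05, which took 18.8% of all genes as higher and 16.1% as lower. It selects 4 members as higher and 9 as lower. Of the 12 members called by limma, 8 are selected there in the same direction, and the other 4, Slc38a6, Slc38a9, Slc38a10 and Slc7a6os, have an authors' log2 fold change of 0.78, 0.55, 0.83 and -0.73 in that order. For Slc38a9 the adjusted p in the authors' deposited table is 0.071. The authors' deposited table also selects 5 members that were below the filter, Slc38a1 and Slc36a4 as higher and Slc1a2, Slc1a7 and Slc43a3 as lower.

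Genes of amino acid sensing and mTORC1, the kinase complex that responds to transported amino acids at the lysosome, were called about as often as all genes. Of 36 tested genes of this list, 11 were higher, 13 lower and 12 did not pass. The share called was 66.7%, against 66.5% of all genes tested, with a median log2 fold change of -0.06 against 0.08 over all genes tested. Lars, encoding the cytosolic leucyl-tRNA synthetase, averaged 37.9 ± 9.34 FPKM in SAS and 247 ± 48.8 FPKM in CTL (SD, n = 3 each; log2 fold change -2.68, SE 0.20, limma adjusted p = 1.9e-05). Fnip1, a partner of folliculin, averaged 4.19 ± 0.282 FPKM in SAS and 21.2 ± 11.3 FPKM in CTL (log2 fold change -1.94), with CTL replicate 3 at 8.81 FPKM.

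Among the rises, Castor2, encoding a homologue of the cytosolic arginine sensor, averaged 19.95 ± 0.813 FPKM in SAS and 2.87 ± 0.805 FPKM in CTL (log2 fold change 2.46, SE 0.19). Sesn1, encoding a sestrin, a family of inhibitors of mTORC1 activation by amino acids, averaged 9.52 ± 1.86 FPKM in SAS and 1.57 ± 0.346 FPKM in CTL (log2 fold change 2.03, SE 0.18). The sestrin genes did not move together, and the other sestrins are named after their values were seen. Sesn2 averaged 43.5 ± 2.75 FPKM in SAS and 89.1 ± 10.2 FPKM in CTL and was lower (log2 fold change -1.01). Sesn3 averaged 35.8 ± 8.18 FPKM in SAS and 11.2 ± 3.64 FPKM in CTL and was higher (log2 fold change 1.61). The 5 genes of Ragulator, the complex that anchors the Rag GTPases at the lysosome, did not move together. Lamtor2 averaged 122 ± 14.2 FPKM in SAS and 33.9 ± 6.01 FPKM in CTL, and Lamtor4 37.6 ± 1.43 FPKM in SAS and 10.8 ± 2.82 FPKM in CTL, both higher, whereas Lamtor3, named after its values were seen, averaged 41.7 ± 2.84 FPKM in SAS and 137 ± 24.8 FPKM in CTL and was lower. Lamtor1 and Lamtor5 did not pass.

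**Figure D4:**
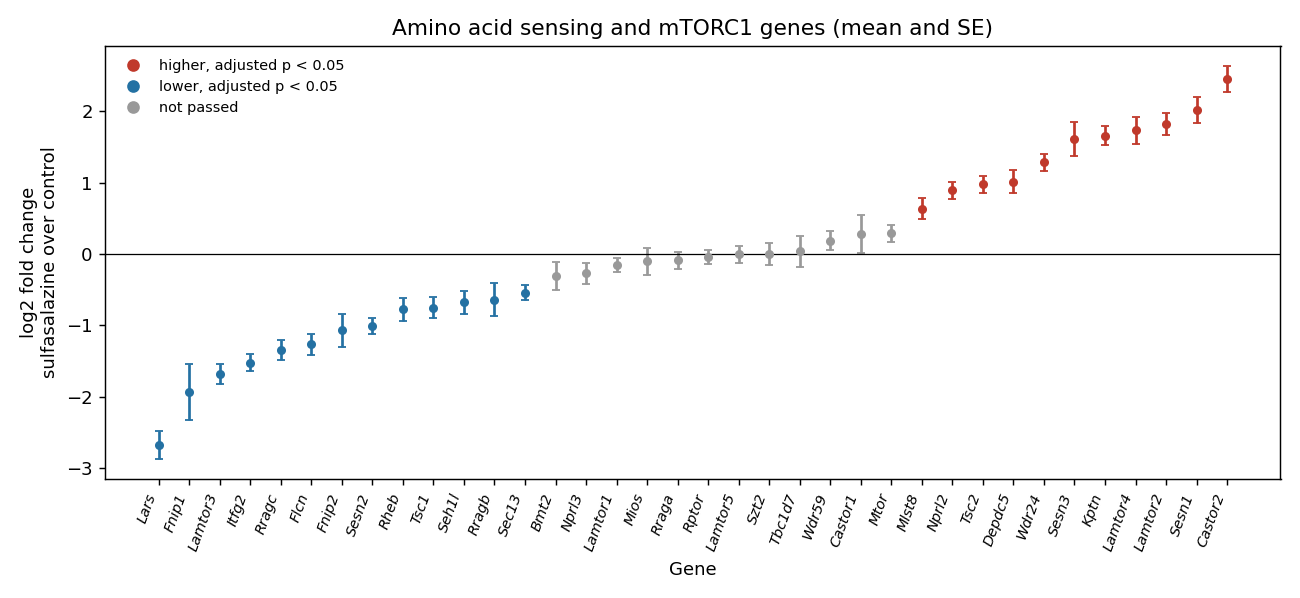
Log2 fold change of sulfasalazine over control for the 36 tested genes of amino acid sensing and mTORC1, ordered by their change, with bars of 1 SE. Points run from -2.68 for Lars to 2.46 for Castor2, with 13 passed as lower, 11 passed as higher and 12 that did not pass.

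Of the amino acid and peptide carriers of other families, 5 were tested, 2 fell and none rose. That is 40.0% called, against 66.5% of all genes tested, of which 29.3% were lower. Slc16a10, encoding the aromatic amino acid carrier TAT1, averaged 3.61 ± 0.829 FPKM in SAS and 9.73 ± 0.931 FPKM in CTL (log2 fold change -1.23, limma adjusted p = 0.00043). Slc15a4, encoding a lysosomal peptide and histidine carrier, averaged 35.2 ± 2.26 FPKM in SAS and 82.1 ± 10.8 FPKM in CTL (log2 fold change -1.19, limma adjusted p = 9.6e-05), with 8.04% of its exonic bases shared with other genes. The lysosomal cystine carrier gene Ctns, the cationic amino acid carrier gene Pqlc2 and Mfsd12 did not pass.

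Of 7 tested genes for transporter partners and turnover, 3 were higher, 3 lower and 1 did not pass. That is 85.7% called in 7 genes, against 66.5% of all genes tested. Rnf5, encoding a ubiquitin ligase known from human cells to act on SLC1A5 and SLC38A2, averaged 60.3 ± 1.29 FPKM in SAS and 9.69 ± 0.922 FPKM in CTL (log2 fold change 2.52, SE 0.12, limma adjusted p = 4.4e-06), with 24.7% of its exonic bases in other genes. The ubiquitin ligase gene Nedd4 averaged 320 ± 16 FPKM in SAS and 183 ± 30.8 FPKM in CTL, and Nedd4l 23.6 ± 1.84 FPKM in SAS and 53.8 ± 11.7 FPKM in CTL. Sgk1, encoding a kinase that acts on Nedd4l, rose by 1.63 on the log2 scale. Arl6ip5, encoding a regulator of glutamate transporter trafficking, averaged 135 ± 2.65 FPKM in SAS and 261 ± 15.4 FPKM in CTL (log2 fold change -0.94), and Cd44, encoding a surface glycoprotein that stabilises the Slc7a11 product, 170 ± 29.3 FPKM in SAS and 250 ± 40.2 FPKM in CTL (log2 fold change -0.55).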

How the data were processed

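The submitters' processing notes name mm39 as build and, as tools, HTSeq 0.13.5, edgeR, HISAT2 2.2.1 and fastp 0.23.0, with no role or setting for any. Per the labels' protocols, a plant RNA extraction kit and a bacterial rRNA depletion kit were used before paired-end sequencing. The authors deposited FPKM values per library and per group, a library-size-adjusted signal per library, and their own log2 fold change, p-value and adjusted p-value per gene, per the file headers. A second deposited table of selected genes was not used. Starts and ends of all 40 members equal those of GENCODE M21 on GRCm38, so coordinates are given as GRCm38.

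The 10338 of 14003 genes that reached 1 FPKM in 3 or more libraries were tested as log2(FPKM + 1) with limma 3.58.1 in R 4.3.3 (intensity trend, two-sided, Benjamini-Hochberg over all genes tested), which understates changes of low genes. Sums were compared with exact permutation tests in scipy 1.17.1, which cannot go below p = 0.1 with 3 against 3. After scaling by 1 factor per library, 100.0% of FPKM values above 0 were whole multiples of a step per gene (within 1e-05 reads); the set nearest to the deposited signal gave the recovered reads. The fit was tested on simulated data. Shared exonic bases and 50-base words were counted in GENCODE M21; no source used here says whether the authors counted by strand.

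Values per library were given for members called with groups that do not overlap and a higher group mean of at least 5 FPKM, for Slc3a2, Slc7a5, Slc7a1, Slc1a5, Slc1a4, Slc38a2, Slc38a1, Slc6a9 and Slc6a6 whatever their values, and for up to 4 examples per role; from each list, up to 6 called genes with the largest absolute change. Members and lists were chosen with earlier results of these data known. The fit was repeated with quantile normalization, median-of-ratios scaling, the replicate number as a block, no trend, libraries left out, a pseudocount of 0.1, and a filter of 5 FPKM or none. Limma voom on recovered reads was added after seeing the data.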

Additional observations from a re-analysis of the deposited data

How the results depend on the processing

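Over the 19 tested members and 15 alternatives, 261 of 280 log2 fold changes kept their direction and their side of the threshold. The calls of Slc3a2, Slc7a5, Slc7a1, Slc1a5, Slc38a7, Slc6a6, Slc7a6os, Slc38a6, Slc38a10 and Slc43a2 held under all 15. Reversed signs were those of genes that did not pass: Slc1a4, -0.10 without replicate 3 of both groups, and Slc6a9, -0.11 under median-of-ratios scaling, -0.17 without replicate 3 of both groups and -0.21 to 0.19 when 1 library was left out (-0.19 without SAS replicate 3, -0.21 without CTL replicate 1). The number of members called ranged from 3 to 7 higher and 7 to 8 lower when 1 library was left out. It was 3 higher without SAS replicate 1 or SAS replicate 2, where Slc38a9 was lost and Slc7a4 fell below the filter. For the sensing genes it ranged from 11 to 12 higher and 12 to 14 lower, and for all genes from 3042 to 4205 higher and 2437 to 3417 lower. The summed level differed by -1492 to -1251 FPKM (SAS minus CTL) when 1 library was left out.

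The labels do not say whether replicate numbers pair the samples. Deviations from the group mean correlated at 0.04, -0.19 and -0.17 for same-numbered libraries over 10338 genes. For libraries with different numbers the correlations ran from -0.14 to 0.21. With 3 libraries a group these values cannot decide whether samples were paired. With the replicate block, 5 members were higher and 7 lower, as without it, and 3649 of all genes were higher and 2771 lower. Median-of-ratios scaling and quantile normalization moved the median of all genes by -0.10 and -0.11. Depth limits members below the filter, 11 of which held 5 or fewer recovered reads in all. Slc1a7, with 49, 61 and 53 recovered reads in CTL, was left out by the filter itself, with CTL replicate 1 at 0.930 FPKM.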
